A study of Monodelphis domestica and Mus musculus and Sus scrofa with 73 samples.

Results

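In the limbs of bat embryos, 17 of the 27026 genes in the deposited bat tables were chosen by a rule with several conditions. On the log2 scale their mean expression was higher by at least 1 at stage 15 than at stage 14 in the forelimb, the limb that becomes the wing. The same difference in the hind limb was under 0.5. The forelimb also exceeded the hind limb by at least 1 at stage 15, without overlap of libraries, and lay within 0.58 of it at stage 14. Filters on length and mean CPM were applied first. The members were chosen by the values measured in the stage 14 and stage 15 libraries, so their forelimb increase and the gap between the limbs at stage 15 are a description of how they were selected and carry no test. Across the 17 genes the forelimb difference, stage 15 minus stage 14, ranged from 1.02 to 2.05 on the log2 scale with a median of 1.36. The hind limb difference over the same interval ranged from -0.58 to 0.44 with a median of 0.11. At stage 13, whose libraries entered the rule only through the mean CPM and mean length over all libraries, the limbs were called different in 0 of the 17 genes and in 0.0747% of all genes tested.

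The animals were embryos of the bat Carollia perspicillata. They came from wild populations, and the labels of 4 forelimb libraries name Trinidad as the place of collection, so no strain, mutation or treatment separates the groups. Whole limbs were dissected, and each RNASeq library was made from total RNA of forelimbs or of hind limbs at stage 13 (ridge), stage 14 (bud) or stage 15 (paddle). Each limb had 3 libraries at stage 13, 3 at stage 14 and 2 at stage 15, which gave 16 bat libraries out of 73 samples in the series. Forelimb replicates 1 and 2 of stage 14 carry the term early-stage in their labels and both forelimb libraries of stage 15 carry the term late-stage, whereas the third forelimb library of stage 14, the stage 13 libraries and every hind limb library carry a stage number. The 4 forelimb libraries with these terms also stand in a separate block of sample numbers, apart from all other bat libraries. Whether the 2 blocks were prepared or sequenced apart is not stated. At stage 15 the wording of the label, the block of sample numbers and the limb therefore cannot be told apart. The labels do not say whether the libraries of a group came from separate embryos, so the p-values given here measure the spread between these libraries, which may be partly technical. A library holds all the cells of a limb, and in such bulk RNA a change in the number of cells of a type cannot be told apart from a change in the RNA of each cell.

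As background, fore- and hind limbs start as similar ridges on the flank, grow out as buds and flatten into paddles in which the digits are laid down. Outgrowth is driven by fibroblast growth factors from the apical ectodermal ridge at the tip of the bud, the order of the digits is set by Sonic hedgehog from the posterior margin, and Hox genes pattern the segments of both limbs. Tbx5 marks the forelimb, while Tbx4 and Pitx1 mark the hind limb. In bats the digits of the forelimb later become greatly elongated and the skin between them is kept as the wing membrane, whereas the digits of the hind foot stay short and free.

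The bat tables identify each gene by a component of a de novo Trinity assembly and do not pair these identifiers with gene names or with sequences. No transcript sequence is shown here for that reason, none of the 17 genes could be placed in a family or a pathway, and the limb and tissue of each library could not be checked against marker genes. Only 2 members are named by identifier: comp128010_c0, which had the highest mean CPM, and comp116668_c0, which had the widest gap between the lowest forelimb and the highest hind limb library at stage 15. The others are called by their length in bases, which is different for each member. The value used for each gene in each library is CPM, its RSEM expected count per 1000000 counts of that library. Group values are means of log2(CPM + 0.5), and differences between such means are written as log2 differences. Because of the added 0.5, a log2 difference understates the change of a gene with low CPM.

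Expected counts summed to between 13600741 and 61814821 in each library, so 3 counts, taken here as the floor of detection, were worth from 0.0485 to 0.221 CPM. Within groups the libraries differed by far more than counting noise, with chi-square values per degree of freedom from 18.9 to 72.2, so each was counted as a sample of its own. Forelimb replicate 3 and all hind limb libraries of stage 13 and hind limb replicate 3 of stage 14 held more of the genes shorter than 300 bases than the other libraries (19.8% to 25.7% of them detected, against 6.36% to 13.6%). All 17 members are longer than 1000 bases by rule. The part of this difference in the values below was not tested.

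The rule kept 12843 genes with a mean length of at least 1000 bases and, of these, 11752 with a mean CPM of at least 1. Of the 11752 genes, 650 were higher by at least 1 on the log2 scale at stage 15 than at stage 14 in the forelimb, and 100 of the 650 had a hind limb difference under 0.5. A forelimb excess of at least 1 at stage 15 left 24 genes, a limb difference within 0.58 of 0 at stage 14 left 19, and the condition that both forelimb libraries of stage 15 lay above both hind limb libraries left the 17. The forelimb difference just inside the limit was 1.02 and that just outside was 0.97. For the hind limb difference these values were 0.44 and 0.54, for the limb difference at stage 15 they were 1.00 and 0.997, and for the size of the limb difference at stage 14 they were 0.51 and 0.59. A further 136 genes failed exactly 1 of the conditions, 50 of them on the hind limb difference and 50 on the limb difference at stage 15. With the roles exchanged, the same rule found 3 genes higher at stage 15 in the hind limb only, 4 lower in the forelimb only and 12 lower in the hind limb only. An increase of at least 1 in both limbs was shown by 387 of the 11752 genes.

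**Figure D1:**
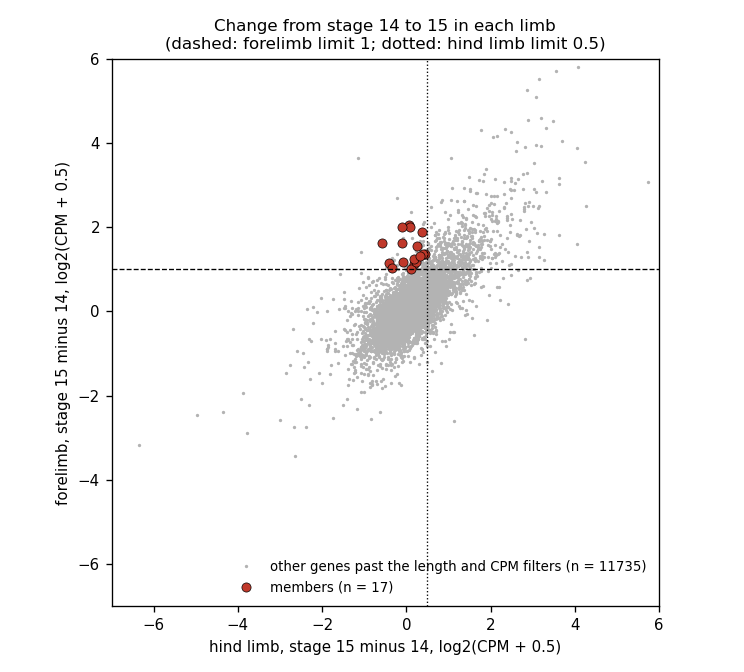
Change from stage 14 to 15 in the forelimb (vertical axis) against the hind limb (horizontal axis), as differences of group means of log2(CPM + 0.5), for the 11752 genes past the length and CPM filters. The 17 members (red) lie at forelimb differences of 1.02 to 2.05 and hind limb differences of -0.58 to 0.44, above the dashed and left of the dotted limit that chose them.

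The member with the most reads was comp128010_c0, a gene of 6675 bases with 1 isoform. Its CPM was 22.5, 22.2 and 35.1 in the stage 13 forelimb libraries, 28.6, 40.9 and 48.1 at stage 14, and 103 and 95.2 at stage 15. In the hind limb it was 32.7, 31.1 and 31.9 at stage 13, 34.9, 28.9 and 22.6 at stage 14, and 30.2 and 45.8 at stage 15. Both stage 15 forelimb libraries thus lay above all other libraries, and the hind limb libraries of the 3 stages overlapped. The forelimb rise was 2.56-fold and the forelimb excess at stage 15 was 2.64-fold on the scale of CPM + 0.5. At stage 14 the forelimb already had the higher mean, by 0.43 on the log2 scale, with overlapping libraries.

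The gene of 2461 bases, also with 1 isoform, had the highest level per length of the members. Its deposited FPKM in the stage 15 forelimb was 26.9 ± 1.32 (SD, n = 2), followed by 15.0 ± 0.813 (SD, n = 2) for comp128010_c0 and 7.92 ± 0.467 (SD, n = 2) for the gene of 2435 bases. FPKM, the fragments per kilobase of transcript and per 1000000 reads, is a scale on which genes of different length can be set side by side. The gene of 2461 bases had a CPM of 61.0 and 57.1 in the forelimb at stage 15, against 22.0 to 28.6 at stage 14 and 20.4 to 32.7 at stage 13. Its hind limb CPM was 31.5 and 25.7 at stage 15, and the hind limb libraries of all stages lay between 20.0 and 40.5. Its SD within groups, 0.30 on the log2 scale, was the lowest of the 17 genes, and all groups other than the stage 15 forelimb overlapped.

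The gene of 2435 bases had 2 isoforms and another order of the limbs at the earliest stage. Its forelimb CPM was 2.81, 3.01 and 2.28 at stage 13, 4.03, 5.59 and 2.88 at stage 14, and 17.7 and 14.9 at stage 15. In the hind limb it was 5.83, 4.29 and 4.72 at stage 13, 3.75, 9.66 and 5.70 at stage 14, and 10.4 and 5.75 at stage 15. The hind limb libraries lay above the forelimb libraries at stage 13 without overlap, and the order of the limbs was the opposite at stage 15. This was the only member with every forelimb library below every hind limb library at stage 13, a pattern shown by 5.17% of the 11752 genes.

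The gene of 4286 bases, with 8 isoforms, had the second widest gap at stage 15 and the lowest adjusted p-values of the members in the tests that involve stage 15. Its forelimb CPM was 1.66, 4.58 and 3.31 at stage 13, 2.26, 3.11 and 3.49 at stage 14, and 11.1 and 15.9 at stage 15. The 8 hind limb libraries lay between 1.35 and 3.29, with 1.61 and 2.67 at stage 15. The rise in the forelimb was 4.05-fold and the excess over the hind limb was 5.34-fold, the largest of the 17 genes. The 14 libraries outside the stage 15 forelimb all lay at or below 4.58 CPM.

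The widest gap belonged to comp116668_c0, a gene of 3306 bases with 1 isoform. Its forelimb CPM was 2.34, 1.34 and 1.10 at stage 13, 0.93, 2.92 and 1.69 at stage 14, and 7.44 and 9.23 at stage 15. The hind limb values were 14.2, 3.12 and 2.04 at stage 13, 1.09, 1.83 and 1.17 at stage 14, and 1.63 and 1.30 at stage 15. Hind limb replicate 1 of stage 13 held the highest value of all 16 libraries, from 232 expected counts, and thus stood above both stage 15 forelimb libraries. Without it the hind limb values of stage 13 were 3.12 and 2.04. By group mean the gene was highest in the stage 15 forelimb, at 8.34 CPM against 6.47 in the stage 13 hind limb, which held that library. In the forelimb it rose 3.99-fold from stage 14 to stage 15, where it was 4.48-fold higher than in the stage 15 hind limb.

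Of the genes with 3 to 7 CPM on average, the gene of 2604 bases stood at its lowest in the stage 14 buds. Its forelimb CPM was 10, 6.68 and 5.37 at stage 13, 4.21, 5.21 and 3.10 at stage 14, and 8.19 and 13.1 at stage 15. In the hind limb it went from 5.96, 5.88 and 9.14 at stage 13 to 2.95, 4.59 and 3.80 at stage 14 and remained at 4.69 and 3.97 at stage 15. The values of the stage 15 forelimb thus overlapped those of stage 13, while the hind limb values of stage 15 lay below all stage 13 values.

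The gene of 2428 bases had 7.66 and 11.4 CPM in the stage 15 forelimb against 5.66 and 3.08 in the hind limb, and 2.74 to 3.77 in the stage 14 forelimb. The gene of 1825 bases had 5.84 and 8.93 CPM in the forelimb and 4.50 and 2.01 in the hind limb at stage 15, after 2.74 to 4.35 in the stage 14 forelimb. Both had their highest values in the stage 15 forelimb, with the narrowest gaps to the hind limb of the 17 genes, 0.41 and 0.34 on the log2 scale. The gene of 2071 bases had 6.16 and 8.62 CPM in the stage 15 forelimb and 4.05 and 2.31 in the stage 15 hind limb. Its highest value, 9.10 CPM, came from hind limb replicate 3 of stage 14, whereas the other hind limb libraries of that stage had 3.60 and 2.26.

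**Figure D2:**
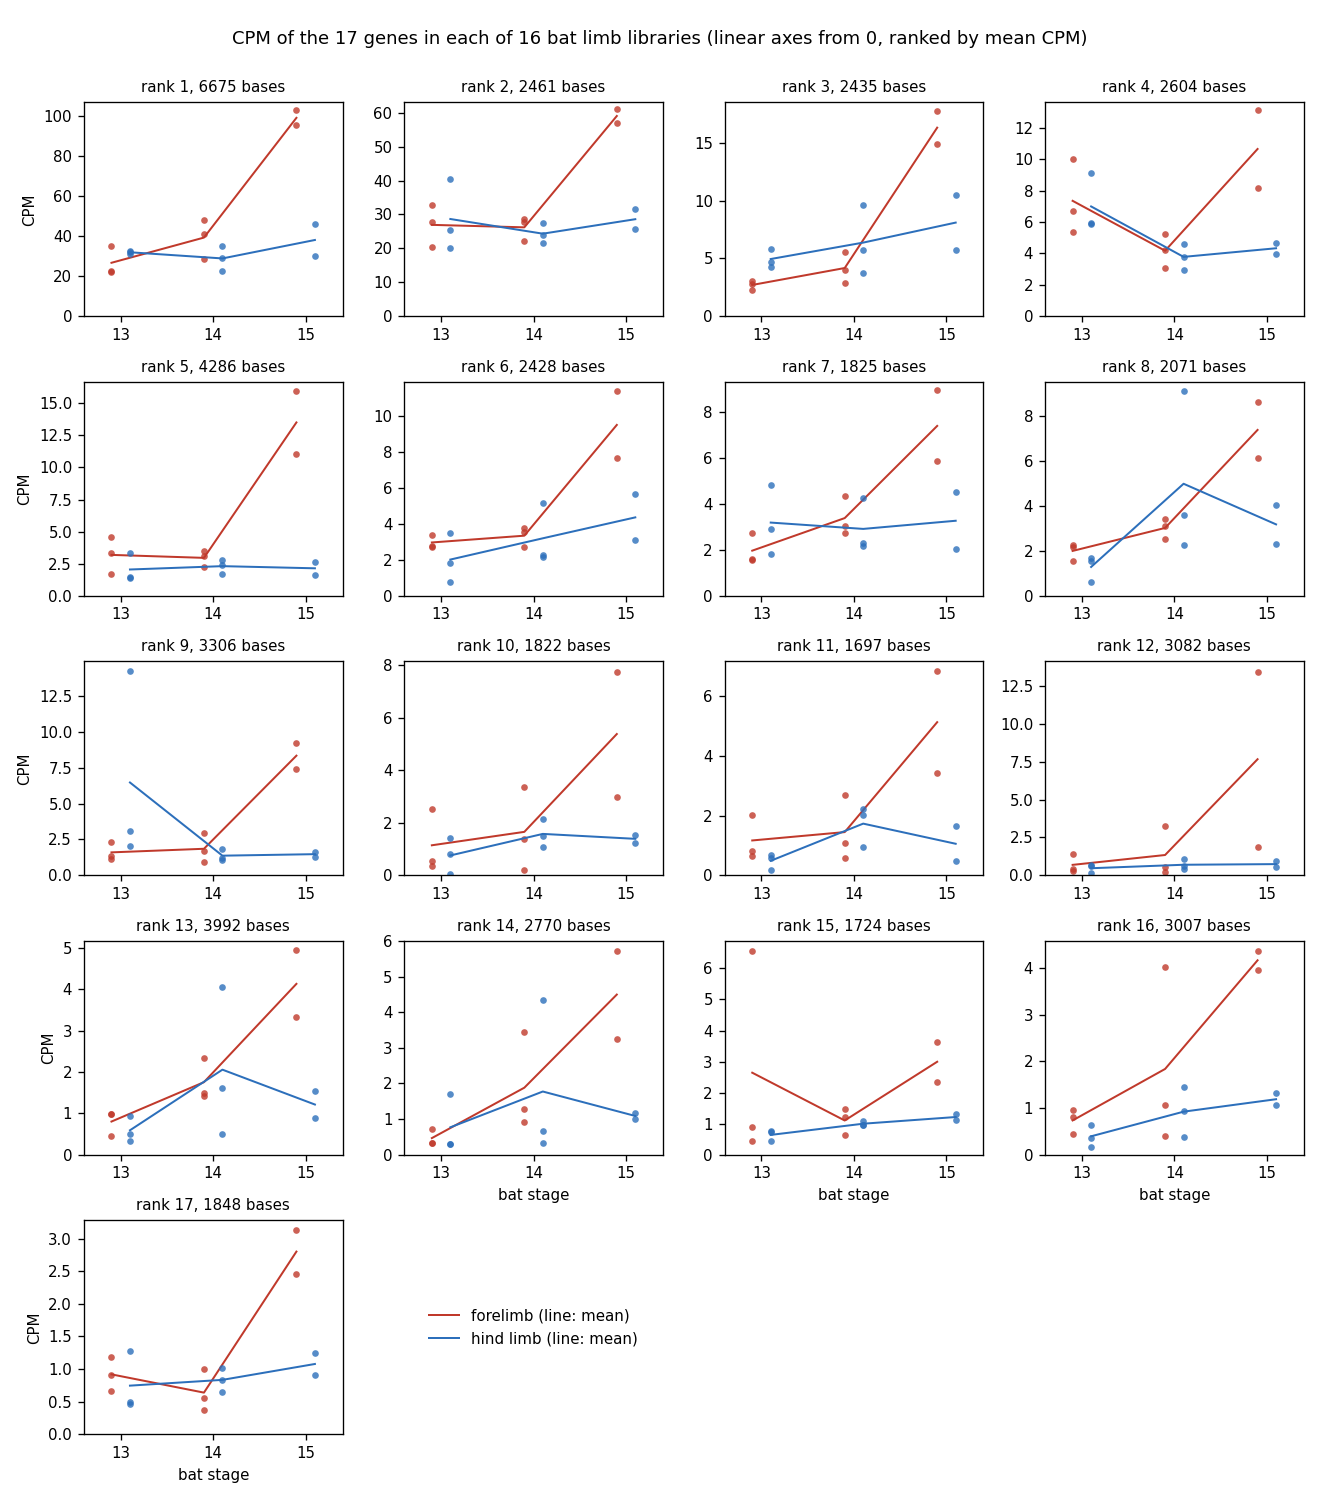
CPM (linear axes from 0) of each of the 17 genes in the 16 bat libraries, by stage, with forelimb libraries in red and hind limb libraries in blue and lines through the group means. The red points of stage 15 lie above the blue points of stage 15 in all panels, as the rule requires, and for the genes of 2071, 3306 and 1724 bases the highest point is in another group.

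The remaining 8 genes had a mean CPM under 2 over the 16 libraries, and so fewer counts behind each value. In the gene of 3082 bases the 2 stage 15 forelimb libraries differed by 2.56 on the log2 scale, with 1.87 CPM from 35 expected counts in replicate 1 and 13.5 CPM from 219 in replicate 2. Its stage 14 forelimb values were 3.28, 0.55 and 0.18, so that replicate 1 of stage 14 lay above replicate 1 of stage 15. The stage 15 hind limb had 0.94 and 0.53. The 4.13-fold increase of the group means thus went with a high value in replicate 2, while replicate 1 lay within the range of the stage 14 forelimb.

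The gene of 1822 bases was similar, with 3.00 and 7.76 CPM in the stage 15 forelimb, 0.21, 1.37 and 3.37 at stage 14, and 1.53 and 1.24 in the stage 15 hind limb. In the gene of 3007 bases the forelimb libraries of stage 15 had 3.96 and 4.37 CPM, but replicate 1 of the stage 14 forelimb already had 4.03, beside 0.41 and 1.07 in the other libraries of that group. The stage 15 hind limb had 1.31 and 1.07. In both genes the forelimb groups of stages 14 and 15 overlapped, while the limbs at stage 15 did not.

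In 2 of the 8 genes the highest hind limb value came from replicate 2 of stage 14. The gene of 2770 bases had 5.73 and 3.26 CPM in the stage 15 forelimb and 0.99 and 1.19 in the hind limb, but at stage 14 replicate 2 had 3.43 in the forelimb and 4.34 in the hind limb, against 0.34 to 1.29 in the other stage 14 libraries. The gene of 3992 bases had 3.32 and 4.93 CPM in the stage 15 forelimb and 0.88 and 1.54 in the hind limb, with 4.06 in hind limb replicate 2 of stage 14. That library was the deepest of the 16. Forelimb replicate 2 of stage 14 was also the highest of its group in both genes, with 2.33 CPM in the gene of 3992 bases. Over genes, the deviations of these 2 libraries from their group means had a correlation of 0.64. The part of depth, or of anything these 2 libraries share, in these values was not tested.

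The gene of 1697 bases, with the most isoforms of the 17 (9), had 3.43 and 6.83 CPM in the stage 15 forelimb and 1.63 and 0.47 in the hind limb, after 0.57 to 2.69 in the stage 14 forelimb. The length that RSEM gave it ranged from 1086 to 1894 bases between libraries, since it is weighted by the isoforms assigned in each. The gene of 1724 bases had 2.36 and 3.63 CPM in the stage 15 forelimb and 1.13 and 1.30 in the hind limb, and its highest value, 6.58 CPM, was in forelimb replicate 1 of stage 13, where the other libraries had 0.91 and 0.44. The gene of 1848 bases had 2.46 and 3.14 CPM in the stage 15 forelimb, above all other libraries, which lay between 0.37 and 1.28. It was the member with the fewest reads, with 46 and 51 expected counts behind its stage 15 forelimb values.

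Over the members, the median log2(CPM + 0.5) was 1.34, 0.88 and 0.92 in the stage 13 forelimb libraries, 1.82, 1.70 and 1.76 at stage 14, and 2.66 and 3.24 at stage 15. The hind limb medians were 0.31, 1.14 and 0.99 at stage 13, 1.40, 1.47 and 1.42 at stage 14, and 1.09 and 1.03 at stage 15. The limbs were thus close at the bud stage, which the rule requires, and parted at the paddle. In the 387 genes higher by at least 1 at stage 15 in both limbs, the corresponding medians went from 2.16 to 2.31 at stage 14 to 4.08 and 4.16 at stage 15 in the forelimb, and from 1.63 to 1.96 to 3.62 and 3.68 in the hind limb. These 387 genes also stood higher in the forelimb at stage 15, by a median of 0.40, against 1.40 in the 17 genes and 0.01 in the 11752. At stage 14 they already stood higher in the forelimb by a median of 0.27, with 298 above 0 and 89 below. The 17 genes, held near 0 there by the rule, had a median of 0.12.

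**Figure D3:**
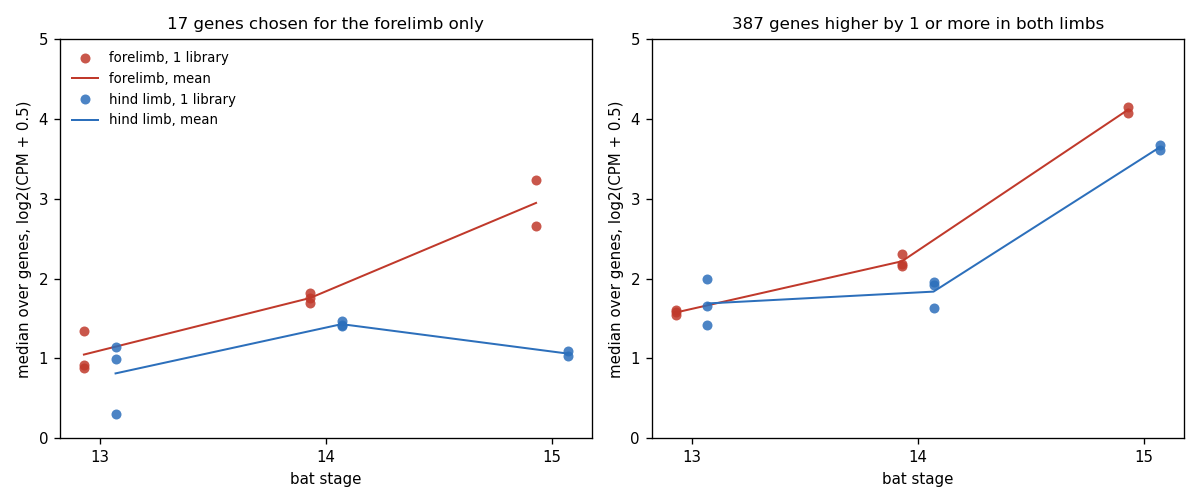
Median log2(CPM + 0.5) over the 17 genes (left) and over the 387 genes higher at stage 15 in both limbs (right) in each library, by stage, with lines through the means of the libraries. On the left the forelimb libraries of stage 15 stand at 2.66 and 3.24 and the hind limb libraries at 1.09 and 1.03, while on the right both limbs are higher at stage 15.

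From stage 13 to 14 the 17 genes differed by a median of 0.31 in the forelimb and 0.33 in the hind limb, with 12 above 0 and 5 below 0 in each limb. Over the 11752 genes these medians were 0.01 and -0.03. This interval shares the stage 14 libraries with the rule and is given without a test. In the forelimb the difference from ridge to bud ranged from -0.73 in the gene of 2604 bases to 1.18 in the gene of 2770 bases. In the hind limb it ranged from -1.48 in comp116668_c0, whose stage 13 mean held the high library described above, to 1.48 in the gene of 2071 bases.

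The stage 15 forelimb libraries were also set against the other libraries. Both lay above all 14 other libraries in 8 of the 17 genes, against 7.68% of the 11752 genes, a condition that is met in part by the rule, which requires them to lie above both stage 15 hind limb libraries. Both lay above the 6 stage 13 libraries in 14 of the 17 genes, against 25.8% of the 11752, the exceptions being comp116668_c0 and the genes of 2604 and 1724 bases. Both lay above the 3 stage 14 forelimb libraries in 13 genes, against 25.9%, and the rule, which compares the means of these groups, read the same values. The libraries of the stage 15 forelimb were used to choose the members in each of these counts, so the counts describe the members and are no independent support. The forelimb held the highest library of 15 genes, in 14 of which it was a stage 15 library. The rule favours this as well, and the share over the 11752 genes was not counted.

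The rule compared means without a test, so the fit across all genes was run to see how many members would be called by it. In edgeR's quasi-likelihood test of the forelimb at stage 15 against stage 14, 9 of the 17 genes had a Benjamini-Hochberg adjusted p-value under 0.05 and a higher value at stage 15, against 8.46% of the 15015 genes tested. The 9 were comp128010_c0, comp116668_c0 and the genes of 2461, 2435, 2604, 4286, 2428, 2071 and 1848 bases. For comp128010_c0 the fitted log2 fold change was 1.30 ± 0.198 (SE) with an edgeR adjusted p of 0.00417, and for comp116668_c0 it was 2.14 ± 0.439 (SE) with 0.0147. The gene of 3082 bases had the largest fitted difference of the members, 2.48, with an SE of 1.12 and an edgeR adjusted p of 0.195. The members had been selected on this contrast, and nothing is read from the count.

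At stage 15 the edgeR test of forelimb against hind limb called 5 of the 17 genes higher in the forelimb at an adjusted p under 0.05, against 0.681% of the 14826 genes tested, again on the contrast that chose them. The count was 9 in DESeq2, 12 without the filter on low counts and 10 with a replicate block. The genes higher in the forelimb over the whole table moved too, from 101 to 158, 261 and 192 in these 3 settings. The count of members also changed in some runs with a library left out. Such a run leaves 1 library in a group, so its count is not given. The 5 genes were the gene of 4286 bases (log2 fold change 2.69 ± 0.345 SE, edgeR adjusted p = 0.00240), comp116668_c0 (2.47 ± 0.347 SE, edgeR adjusted p = 0.00425), comp128010_c0 (1.38 ± 0.191 SE, edgeR adjusted p = 0.00528) and the genes of 2461 bases (1.03 ± 0.176 SE, edgeR adjusted p = 0.0140) and 2770 bases (2.05 ± 0.432 SE, edgeR adjusted p = 0.0476). The other 12 genes differed by at least 1 between the group means without an adjusted p under 0.05. On the deposited FPKM scale the 17 genes were without overlap at stage 15, and the share of the 11752 genes without overlap on this scale was not counted. FPKM comes from the same reads as the CPM on which the rule required this, so neither this nor the next count is independent support. In 12 of them the lowest of RSEM's lower credibility bounds in the forelimb lay above the highest upper bound in the hind limb, against 4.72% of the 11752 genes. These bounds cover the assignment of reads within a library and not the spread between embryos.

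The question whether the change from stage 14 to 15 differed between the limbs was put to all genes as an interaction of stage and limb. Its values are those the rule used. The edgeR test called 0 of the 17 genes, against 0.0% of the 15783 genes tested, while 771 genes had an unadjusted p under 0.05 and 10 members were among them. DESeq2, a second tool run on the same counts, called 58 genes and 1 member, the gene of 4286 bases, with a log2 interaction of 2.33 and a DESeq2 adjusted p of 0.00511. In edgeR that gene had the lowest adjusted p of the members, 0.332, with an interaction of 2.31 ± 0.482 (SE).

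Stage 13 entered none of the contrasts of the rule, although its libraries were part of the mean CPM and mean length on which genes were filtered, and forelimb and hind limb were compared there by a test. The edgeR test called 0 of the 17 genes at an adjusted p under 0.05, against 0.0747% of the 14729 genes tested (11 genes). At an unadjusted p under 0.05 there were 895 genes and 2 members, comp116668_c0 (log2 fold change -1.94 ± 0.753 SE) and the gene of 2435 bases (-0.82 ± 0.322 SE), both lower in the forelimb with an edgeR adjusted p of 0.765. DESeq2 called 127 of the 14729 genes and 0 members, with 1048 genes and 3 members at an unadjusted p under 0.05. Hind limb replicate 1 of stage 13 was the library with the high value of comp116668_c0. Without it, 624 of the 15194 genes tested and 0 members had an unadjusted edgeR p under 0.05. The log2 fold change of comp116668_c0 was then -0.60. Without forelimb replicate 3 the test called 1190 genes and still 0 members, whose lowest edgeR adjusted p was then 0.0764. That library and the hind limb libraries of stage 13 were those in which more short genes were detected (23.1% to 25.7%, against 8.90% and 11.7% in forelimb replicates 2 and 1), and the part of this in the comparison was not tested.

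The stage 13 differences of the members, forelimb minus hind limb, ranged from -1.34 to 0.90 with a median of 0.23, with 11 genes above 0 and 6 below, while the median of the 11752 genes was -0.02. The largest positive value, 0.90, was that of the gene of 1724 bases, through the 6.58 CPM of forelimb replicate 1, and its fitted log2 fold change of 2.15 had an SE of 0.966 and an edgeR adjusted p of 0.827. For comp128010_c0 the fitted value was -0.24 ± 0.192 (SE), with an edgeR adjusted p of 0.852, and it ranged from -0.42 (without forelimb replicate 3) to -0.13 (without forelimb replicate 2) with a library left out. In 0 of the 17 genes did all forelimb libraries of stage 13 lie above all hind limb libraries, against 5.13% of the 11752 genes. The precision of this comparison differed between the members, since the SE ran from 0.192 for comp128010_c0 to 1.00 for the gene of 1822 bases.

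**Figure D4:**
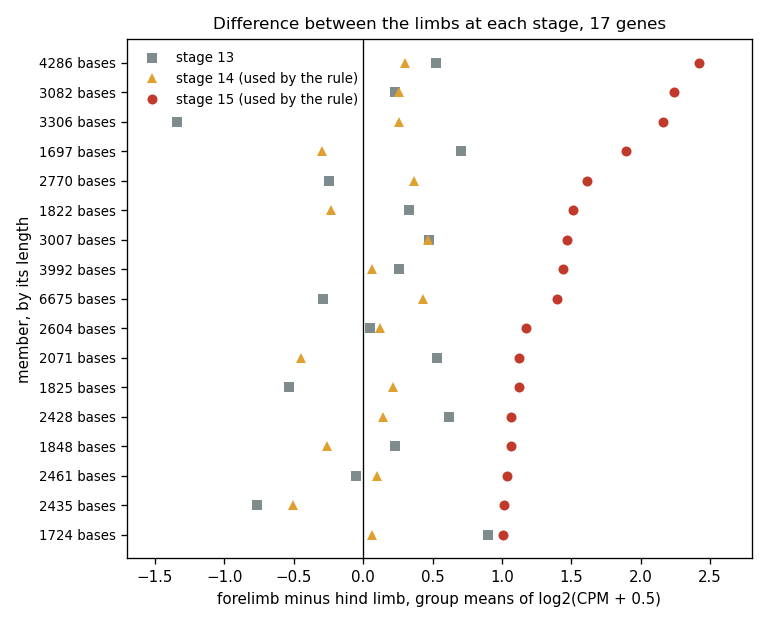
Forelimb minus hind limb difference of the group means of log2(CPM + 0.5) for each of the 17 genes at stage 13 (squares), stage 14 (triangles) and stage 15 (circles). The stage 15 values lie between 1.00 and 2.42 and those of stage 14 within 0.51 of 0, both by the rule, and the stage 13 values lie on both sides of 0.

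The SD of the members within groups on the log2 scale ranged from 0.30 to 0.92 with a median of 0.53, and 10 of the 17 were at 0.5 or more. The median SD was 0.25 over the 11752 genes and 0.40 over the 387 genes higher in both limbs, which had more reads per gene. Within the stage 15 forelimb, 13 of the 17 genes were higher in replicate 2 than in replicate 1, by a median of 0.51 on the log2 scale, while the median over the 11752 genes was -0.02. The 4 genes higher in replicate 1 were comp128010_c0 and those of 2461, 2435 and 2770 bases. In the stage 15 hind limb replicate 2 minus replicate 1 had a median of -0.22 over the members and 0.00 over the 11752 genes.

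To read the chosen genes in a forelimb library whose counts had no part in the choice, the rule was also run with only 1 of the stage 15 forelimb libraries, and its genes were followed in the library left out. Without replicate 1 the rule chose 65 genes, 13 of them members. Their excess over the hind limb had a median of 1.34 in replicate 2, which chose them, and 0.38 in replicate 1, where the median of all 11752 genes was 0.02. In replicate 1, 42 of the 65 genes lay above both hind limb libraries (37.5% of the 11752 genes did so) and 8 reached 1 (1.23% of the 11752).

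Without replicate 2 the rule chose 24 genes, 8 of them members. Their median excess was 1.24 in replicate 1 and 0.61 in replicate 2, where the median of all 11752 genes was 0.00. In replicate 2, 17 of the 24 genes lay above both hind limb libraries (37.2% of the 11752 genes did so) and 6 reached 1 (2.15% of the 11752). The forelimb difference from stage 14 was smaller in the library left out as well, at 0.61 against 1.40 in the former run and at 0.97 against 1.50 in the latter. The hind limb and stage 14 libraries, which had a part in choosing the genes, were the same in both readings, so the sign of the difference in the library left out is favoured by the choice and is no independent support.

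**Figure D5:**
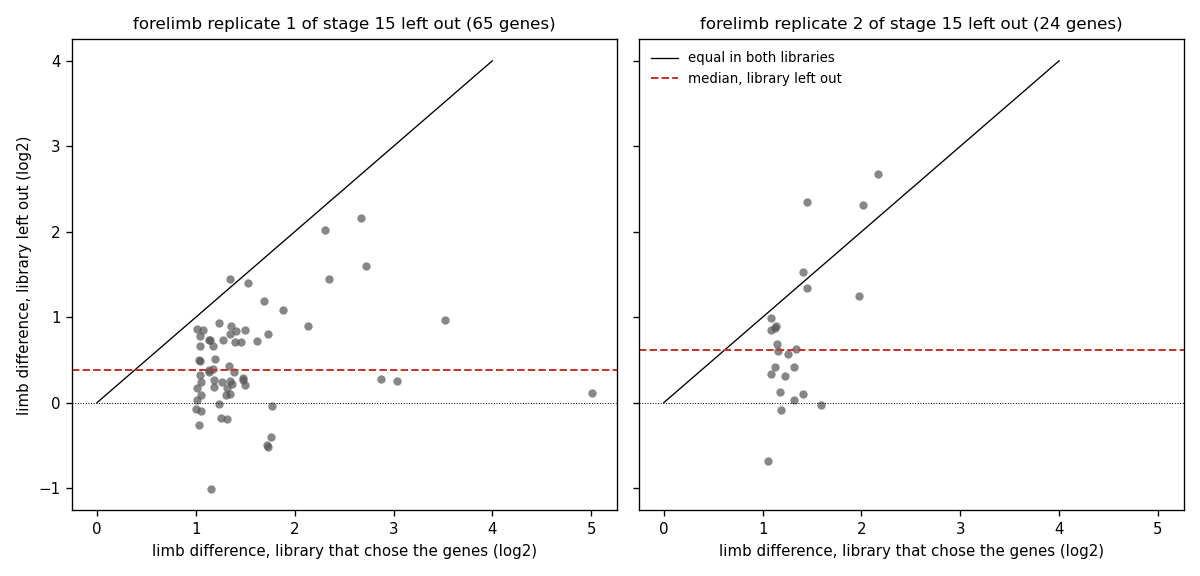
Forelimb minus hind limb difference at stage 15 in the forelimb library that chose the genes (horizontal axis) and in the library left out (vertical axis), in log2 units, for the 65 genes chosen without replicate 1 (left) and the 24 genes chosen without replicate 2 (right). Most points lie below the line of equal values, and the medians in the library left out (dashed) are 0.38 and 0.61.

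The choice of members was followed through 10 runs in which each library of stages 14 and 15 was left out in turn. Only comp116668_c0 and the gene of 4286 bases were chosen in all 10. The gene of 2604 bases was chosen in 9, comp128010_c0 in 7 and the gene of 2435 bases in 5. Leaving out a stage 15 library of the hind limb gave 27 genes for either replicate, with 14 and 12 of the 17 members.

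Within the stage 14 forelimb the wording of the labels, and with it the block of sample numbers, could be compared in the same limb. Replicates 1 and 2 carry the early-stage term there and replicate 3 the stage number. The mean of the former minus the latter had a median of 0.11 over the 17 genes, with 10 above 0 and 7 below and a range from -1.74 to 1.54, while the median over the 11752 genes was -0.04. No library of the stage 15 forelimb carries a stage number and no hind limb library carries the other term, so this comparison could not be made at stage 15.

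Apart from the rule, the members shared few measured properties. Their mean lengths ran from 1697 to 6675 bases with a median of 2461, against 2534 for the 11752 genes, and their median number of isoforms was 2 in both sets. A total of 7 members (41.2%) had 1 isoform, against 33.6% of the 11752, and 6 had at least 4. No other gene of the tables shared a Trinity component with a member. The members had a median of 3.34 CPM over all libraries, against 31.3 for the 11752 genes and 6.17 for the 387 genes higher in both limbs. Per length, the median FPKM of the members was 3.55 in the stage 15 forelimb and 0.845 in the stage 15 hind limb, where the 11752 genes had 12.7 and 12.2. At stage 14 the members had a median FPKM of 0.977 in the forelimb and 1.03 in the hind limb. A mean CPM under 5 was found for 13 of the 17 genes, but all had at least 10 expected counts in both stage 15 forelimb libraries (lowest 35, highest 1916).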

How the data were processed

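Tables for 16 bat RNASeq libraries were analysed, and groups and replicate numbers were taken from the labels. The authors trimmed the reads, assembled pooled bat reads with Trinity, kept contigs that matched SwissProt proteins and quantified genes with RSEM, whose version is not given in the sources used here. The deposited expected counts estimate, without normalization, the reads of each gene in a library. The deposited FPKM values, with their credibility bounds, were normalized by the authors' RSEM runs for effective length and library size. The deposited gene length is the isoform-weighted length in each library, averaged here over the 16 libraries. TPM columns were not used.

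The 17 members, the rule and the comparisons were chosen with earlier results of these data known. CPM was computed from expected counts with a pseudocount of 0.5. Tests across genes used edgeR 4.0.16 (R 4.3.3), quasi-likelihood with TMM factors, on expected counts rounded to whole numbers, for genes with at least 10 counts in as many libraries as the smaller group, with Benjamini-Hochberg adjustment over all genes tested. A pairwise fit held the libraries of the 2 groups compared, and the interaction held the 10 libraries of stages 14 and 15. SE values were back-computed from the fitted log2 fold change and the F statistic. DESeq2 1.42.0 was the alternative. The 2 genes named by identifier are the member with the highest mean CPM and the member with the largest gap at stage 15. Scripts were tested on simulated data. Alternatives were other scalings, pseudocounts, filters, a replicate block and leaving out each library. The tests of stage 15, those of the forelimb rise and the leave-one-out runs of the interaction under alternatives were added after seeing the data. Libraries of mouse, opossum and pig were not analysed here.

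Depth and counting floors cover counting error only. Libraries with the same replicate number did not deviate from their group means together in every pair (correlations over genes of 0.21, -0.11 and 0.20 at stage 13 and -0.07, 0.64 and 0.03 at stage 14), so the numbers were not taken as pairs. At stage 15 the correlation was 0.21 for both pairs. With 2 libraries per group the deviations mirror each other, so this is 1 value and says little about pairing.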

Additional observations from a re-analysis of the deposited data

How the results depend on the processing

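Of 103 alternative values over 10 results, 92 kept direction and call (for counts, within 1.5 times; for medians, within the spread between libraries), and 11 moved. The tally includes counts of 0 members and stage 13 values of the 2 named genes, which were far from a call. For the rule it follows how many genes were chosen and not which, so it does not measure how stable the membership is. The number of genes chosen by the rule was 17, fell to 4 with a mean CPM of at least 5, and ranged from 14 to 65 with a library left out (65 without forelimb replicate 1 of stage 15, 24 without replicate 2, 27 without either hind limb library). With FPKM in place of CPM the rule again chose 17 genes, but only 7 of the members. The filter then asked for a mean FPKM of at least 1, which is another cutoff than a mean CPM of at least 1. Some members fell under this cutoff, so their loss is no reading of their limb or stage differences on FPKM. A pseudocount of 1 kept 10 of 14, a pseudocount of 0.1 kept 16 of 24 and TMM scaling kept 13 of 14. The cause of these moves was not tested. The members called between the limbs at stage 15 were 5 in edgeR (101 of 14826 genes higher in the forelimb) and 9 in DESeq2 (158 of 14826). They were 12 without the filter on low counts (261 of 20262) and 10 with the replicate block (192 of 14826). Their number also changed in some runs with a library left out, which leave 1 library in a group. For the forelimb at stage 15 against 14, 9 members were called in edgeR (1270 of 15015 genes higher at stage 15) and 10 with the replicate block (1254 of 15015). DESeq2 called 11 (1531 of 15015), and 11 were called without the filter on low counts (1450 of 21194). Without stage 14 replicate 1 there were 10 (910 of 14728), and 9 without replicate 2 (909 of 14945) or 3 (1067 of 14704). The count fell with a stage 15 library left out, which leaves 1 in that group, so it is not given. For the interaction, 0 members were called in edgeR, with or without the replicate block, and 1 in DESeq2.

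At stage 13, 0 members were called under any alternative run, with lowest adjusted p-values of the members from 0.0764 to 1.00, and the median limb difference of 0.23 ranged from 0.03 to 0.34. With a count minimum of 50, 6 members could be tested. With the replicate block, the genes called over the whole table were 12 in place of 11 at stage 13, 2 in place of 0 for the interaction and 2129 in place of 1922 for the forelimb at stage 15 against 14. The depth limits the 8 members with a mean CPM under 2, and 2 libraries per limb limit all stage 15 comparisons.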
